A study of Mus musculus with 6 samples.

Results

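Cadherins, protocadherins, catenins and desmosome genes were followed in mouse bone marrow cells carrying the leukaemia fusion MLL-AF9. Members were taken by symbol: names beginning with Cdh, Pcdh, Dsg, Dsc or Pkp, together with Dsp, Jup, Ctnna1, Ctnnb1 and Ctnnd1. The pattern matched 118 symbols, of which 4 (Dscam, Dscaml1, Dscc1 and Dscr3) carry the letters Dsc without being desmocollins and were omitted. This left 114 of the 47593 genes listed. Of these, 22 had a mean normalised read count of at least 10 over the 6 libraries and could be tested, against 12991 of all genes. A further 42 members had at least 1 read, and 50 had 0 reads in all libraries.

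There were 3 libraries with the E531R substitution in the AF9 part of the fusion and 3 libraries with the unchanged fusion (WT). The substitution sits in the fusion carried by the virus, so no gene's level checks the labels. All cells were c-Kit positive femur marrow cells that received MSCVneo-MLL-AF9 by retrovirus, were selected on G418 and were passaged in methylcellulose with cytokines. Both groups thus carry a form of the leukaemia fusion and a resistance gene. The series describes the comparison as one of lost binding between AF9 and the corepressor BCOR. Nothing in the labels states that replicates came from separate cultures or mice, so p-values measure the spread between these libraries, which may be technical. The libraries held between 14161139 and 33459668 reads assigned to genes. WT replicate 3 stood apart: its correlation with the other WT libraries over tested genes was 0.978 and 0.977, against 0.994 between those. Kit, Ptprc, Mpo and the other 5 markers of myeloid progenitors were all detected, and 4 of 8 were higher and 1 lower in E531R. Of all tested genes, 10.4% were higher and 9.53% lower.

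Classical cadherins are calcium-dependent adhesion proteins that bind the same cadherin on a neighbouring cell. Inside the cell they hold beta-catenin (Ctnnb1) or plakoglobin (Jup) and p120-catenin (Ctnnd1), and alpha-catenin (Ctnna1) joins them to actin. In desmosomes, the cadherins Dsg and Dsc are tied through plakoglobin and plakophilins (Pkp) to desmoplakin (Dsp), which holds intermediate filaments. The clustered protocadherins are surface identity labels best known in neurons, where each cell uses a small choice of the many alternative promoters of the Pcdha, Pcdhb and Pcdhg clusters. In blood, E-cadherin (Cdh1) is known on erythroid progenitors and on some macrophages.

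The promoter windows of the members with the largest rise and the largest fall are shown because the account turns on these genes. They span 250 bases before to 50 after a transcript start and are RefSeq sequences on GRCm38.p6, plus strand, taken from chr13:38151044-38151343 for Dsp and chr5:57717831-57718130 for Pcdh7. Capitals mark the letters CAGGTG, the E-box bound by SNAIL and ZEB factors, searched with its reverse complement CACCTG.
Dsp: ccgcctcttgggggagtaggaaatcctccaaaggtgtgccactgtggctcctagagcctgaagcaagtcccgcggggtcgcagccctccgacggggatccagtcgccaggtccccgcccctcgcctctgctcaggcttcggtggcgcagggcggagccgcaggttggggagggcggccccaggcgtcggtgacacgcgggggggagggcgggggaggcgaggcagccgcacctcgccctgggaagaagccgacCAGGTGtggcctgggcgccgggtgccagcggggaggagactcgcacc
Pcdh7: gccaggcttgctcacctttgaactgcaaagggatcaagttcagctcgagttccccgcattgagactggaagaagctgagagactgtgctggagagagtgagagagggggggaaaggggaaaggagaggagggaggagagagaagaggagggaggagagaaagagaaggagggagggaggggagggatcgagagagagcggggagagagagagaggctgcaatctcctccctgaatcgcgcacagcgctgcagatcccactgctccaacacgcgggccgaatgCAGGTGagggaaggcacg
Each window holds 1 such match, and 20.2% of the 32851 RefSeq promoter windows hold at least 1. The Dsp window has a GC content of 73.0% and 27 CpG dinucleotides, and the Pcdh7 window 59.3% and 11, beside medians of 52.7% and 7 over all windows. The GC-box letters GGGCGG or CCGCCC occur 4 times in the Dsp window and 0 times in the Pcdh7 window, and 35.7% of all windows hold them. Promoter windows were matched for 32 of the 114 members.

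The largest changes with calls that held throughout were those of Dsp and Cdh1, which were higher in E531R cells, and of Pcdh7 and Pkp3, which were lower. Of the 22 tested members, 3 were higher and 8 lower in E531R at a limma adjusted p under 0.05. Over all 12991 tested genes 10.4% were higher and 9.53% lower, 19.9% in all. The median log2 fold change was -0.45 over the tested members and 0.01 over all tested genes. The tested members include genes that reached the minimum mean through the group in which they are high, so their counts do not describe all 114. In 15 of the 22 the E531R and WT values did not overlap, against 44.0% of all tested genes. Among tested members 6 passed with a change of at least 4-fold on the log2(value + 1) scale, as did 4.1% of all tested genes, and 3 (Dsp, Pcdh7 and Pkp3) with at least 16-fold, as did 1.03%. Without WT replicate 3, 4 tested members were higher and 10 lower, and 47.4% of all tested genes were then called. Without any other library, 2 or 3 members were higher and 4 or 5 lower. Calls over all tested genes then fell too, to 819 to 1128 higher and 746 to 1053 lower, against 1349 and 1238 with all 6 libraries. These are bulk libraries, in which fewer cells of a type and less RNA per cell cannot be told apart.

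**Figure D1:**
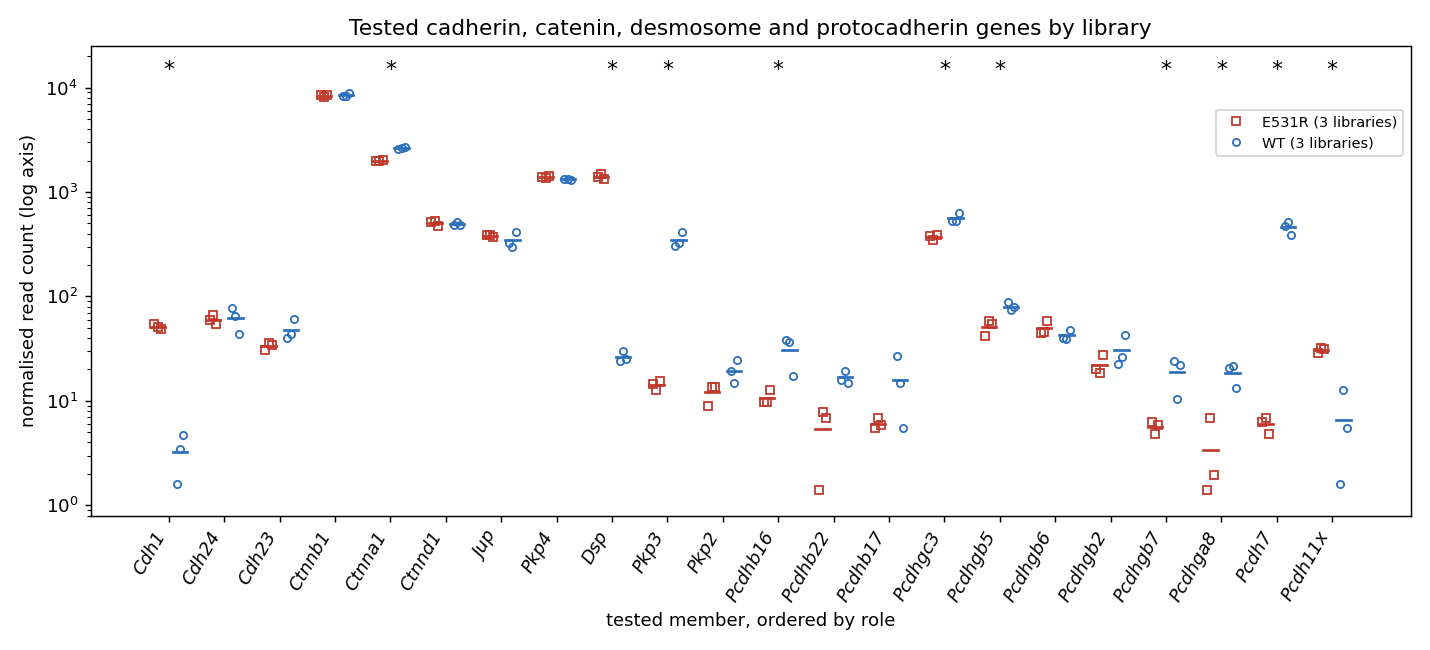
Normalised read counts (y axis, logarithmic) of the 22 tested members, ordered by role on the x axis, with 1 point per library (red squares E531R, blue circles WT), a bar at the mean of 3 libraries and an asterisk at members past the threshold. Dsp lies between 1337 and 1480 in the E531R libraries and between 23.9 and 29.9 in the WT libraries, and Pcdh7 lies between 4.87 and 6.81 in E531R and between 385 and 521 in WT.

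Among classical cadherins only Cdh1 reached the level for testing. It lies on chromosome 8 (106603351 to 106670246, GRCm38, plus strand). Its normalised read count was 54.2, 50.6 and 48.7 in the E531R libraries, against 1.60, 3.44 and 4.72 in the WT libraries. The groups do not overlap, and the WT values rest on 10 reads over 3 libraries, against 180 reads in E531R. Cdh1 averaged 51.2 ± 2.81 in E531R and 3.25 ± 1.57 in WT (SD, n = 3 each), a 15.7-fold difference (log2 fold change 3.69, SE 0.33; limma adjusted p = 0.000354). It passed in all 13 alternatives that could test it. Of the other classical cadherins, N-cadherin (Cdh2) and P-cadherin (Cdh3) had 0 reads in all libraries.

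The remaining cadherins were low and showed no called change. Cdh24, a type II cadherin, had 59.1, 66.2 and 54.5 in E531R and 78.2, 64.3 and 44.1 in WT, and the groups overlap. Cdh23, a long cadherin of the hair cells of the inner ear, had 30.6, 36.0 and 34.1 in E531R and 39.9, 43.6 and 60.6 in WT. All E531R values of Cdh23 lay below all WT values, but it did not pass (log2 fold change -0.49, 95% interval -0.97 to -0.00166; limma adjusted p = 0.152). Under the minimum mean, Cdh17, a cadherin of the intestine, had 31 reads in E531R and 7 in WT, Cdhr4 had 26 and 6, and Cdh11, a cadherin of mesenchyme, had 24 and 10. With no minimum mean, Cdhr4 passed (log2 fold change 1.46; limma adjusted p = 0.0339) and Cdh17 did not (1.87; limma adjusted p = 0.0932). Of the exonic bases of Cdhr4, 52.2% are shared with other genes, so its reads are uncertain. VE-cadherin (Cdh5), which marks endothelium, had 1 read in E531R and 3 in WT.

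The catenins were abundant in both groups. Beta-catenin, which links cadherins to alpha-catenin and also carries WNT signals to the nucleus, had 8481, 8183 and 8463 in E531R and 8213, 8308 and 8833 in WT. The groups overlap, and the 95% interval of its log2 fold change ran from -0.17 to 0.14 around -0.01 (limma adjusted p = 0.91). Alpha-catenin was the catenin that changed: Ctnna1 had 1958, 1960 and 2028 in E531R and 2567, 2635 and 2675 in WT. Every E531R library lay below every WT library, at 1982 ± 39.6 against 2626 ± 54.8 (SD, n = 3 each), a 1.32-fold fall (log2 fold change -0.41, SE 0.061; limma adjusted p = 0.0036). Its call held in all 14 alternatives. For p120-catenin, which keeps cadherins at the membrane, the log2 fold change was 0.03 (95% interval -0.17 to 0.23). Of its exonic bases, 61.2% are shared with Gm28635, a gene with 0 reads here.

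Plakoglobin had 384, 389 and 371 in E531R and 326, 299 and 416 in WT. The E531R values lie within the WT range, and Jup did not pass (log2 fold change 0.15, 95% interval -0.16 to 0.47; limma adjusted p = 0.471). Without WT replicate 3, the highest WT library, it was called higher (log2 fold change 0.29; limma adjusted p = 0.00579).

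Per kb of the longest coding transcript, the level of beta-catenin was 2312 ± 46.1 in E531R and 2333 ± 92.3 in WT (SD, n = 3 each), above those of the other 3 catenins. Alpha-catenin followed at 530.9 ± 10.6 in E531R and 703 ± 14.7 in WT. Plakoglobin had 119 ± 2.97 and 108 ± 19.1, and p120-catenin 79.6 ± 4.61 and 77.9 ± 3.36, again in E531R and WT. Since 61.2% of the exonic bases of p120-catenin are shared with Gm28635, its level per kb may be understated. Its place below plakoglobin is therefore uncertain. Cdh1 reached 11.5 ± 0.634 per kb in E531R and 0.735 ± 0.355 in WT.

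Desmosome genes changed in opposite directions. Dsp, the plakin that ties the desmosomal plaque to intermediate filaments, lies on chromosome 13 (38151294 to 38198577, GRCm38, plus strand). It had 1386, 1480 and 1337 in E531R, against 23.9, 29.9 and 25.2 in WT. The lowest E531R library lay far above the highest WT library, and Dsp averaged 1401 ± 72.9 in E531R and 26.3 ± 3.11 in WT (SD, n = 3 each). This 53.2-fold rise (log2 fold change 5.69, SE 0.12; limma adjusted p = 1.44e-06) was the 7th highest log2 fold change of the 12991 tested genes. Of its exonic bases, 5.17% are shared with Gm10129 on the opposite strand, which had at most 1.39 units in any library.

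Plakophilin 3, an armadillo protein that recruits desmosomal cadherins and desmoplakin, lies on chromosome 7 (141078218 to 141090510, plus strand). Pkp3 had 14.6, 12.7 and 15.6 in E531R, against 306.5, 322.6 and 418 in WT. The groups do not overlap, with means of 14.3 ± 1.49 in E531R and 349 ± 60.3 in WT (SD, n = 3 each), a 24.5-fold fall (log2 fold change -4.51, SE 0.17; limma adjusted p = 9.72e-06). The Dsp and Pkp3 calls held in all 14 alternatives.

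The other plakophilins did not pass. Plakophilin 4, which is found at adherens junctions as well as desmosomes, had 1393, 1357 and 1433 in E531R and 1328, 1323 and 1299 in WT. Its E531R values lay above its WT values, but by little (log2 fold change 0.08, 95% interval -0.07 to 0.23; limma adjusted p = 0.412). Plakophilin 2, known from heart desmosomes, had 9.03, 13.6 and 13.6 in E531R and 19.2, 14.9 and 24.4 in WT, and Pkp1, known from skin, had 0 reads. Pkp2 values were lower in all E531R libraries, and the change did not pass (log2 fold change -0.64, 95% interval -1.32 to 0.04; limma adjusted p = 0.173).

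The desmosomal cadherins themselves were almost without reads. Of 9 Dsg and Dsc genes, 7 had 0 of the 145901736 assigned reads, where a floor of 3 reads over the 6 libraries is the upper limit for each. Dsc2 had 1 read in E531R and 0 in WT, and Dsc1 had 0 in E531R and 1 in WT. Per kb of the longest coding transcript, Dsp reached 146 ± 7.60 in E531R and 2.74 ± 0.324 in WT, and Pkp3 4.89 ± 0.510 and 120 ± 20.7 (SD, n = 3 each). Pkp4 had 302 ± 8.28 per kb in E531R and 285 ± 3.35 in WT, the highest level per kb of any tested desmosome gene in both groups.

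**Figure D2:**
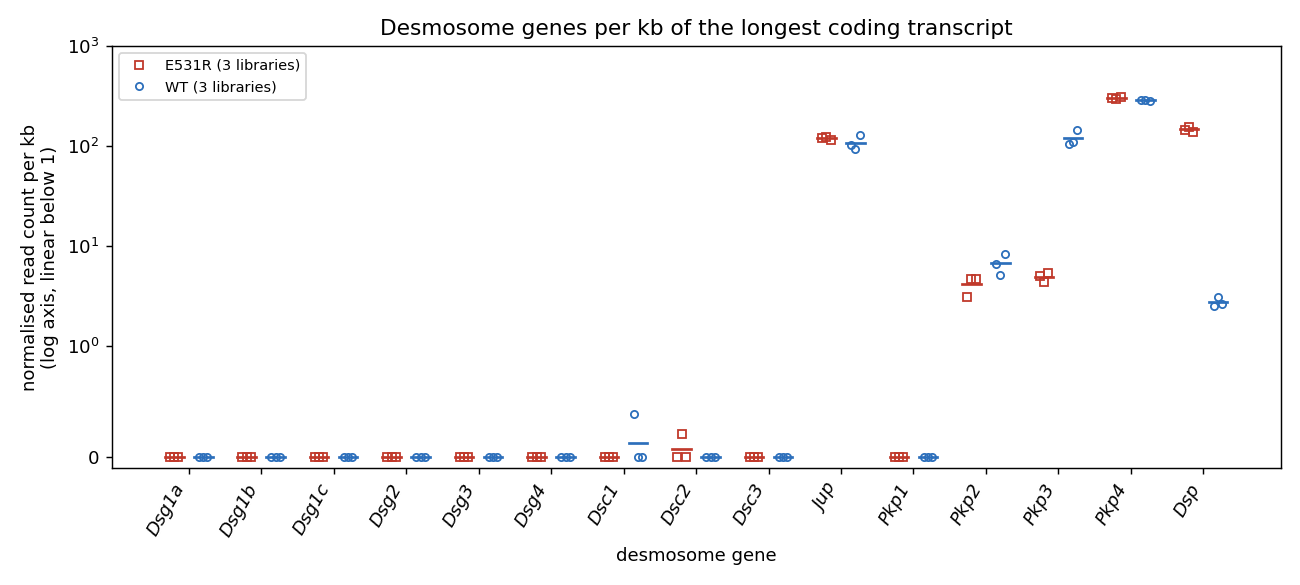
Normalised read count per kb of the longest coding transcript for 15 desmosome genes including Jup, on a y axis that is logarithmic above 1 and linear below, with 1 point per library (red squares E531R, blue circles WT) and bars at means of 3 libraries. Dsg and Dsc genes lie at or near 0 in both groups, Pkp4 and Jup lie at like levels in both, Dsp has means of 146 in E531R and 2.74 in WT, and Pkp3 4.89 in E531R and 120 in WT.

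Beyond the members, 5 of 12 listed desmosome-linked genes could be tested, with 1 higher and 1 lower in E531R. The shares over all tested genes were 10.4% higher and 9.53% lower. Perp, a small membrane protein of desmosomes and a p53 target, had 42.4, 47.7 and 47.7 in E531R and 1.60, 0 and 2.36 in WT (log2 fold change 4.51; limma adjusted p = 0.000726). Evpl, the plakin envoplakin, had 11.9 ± 1.26 in E531R and 23.1 ± 3.53 in WT (SD, n = 3 each, with a log2 fold change of -0.90, limma adjusted p = 0.0301). The Evpl call was lost without any library other than WT replicate 3 (limma adjusted p between 0.0644 and 0.118), with no minimum mean (0.0849) and with DESeq2 (DESeq2 adjusted p = 0.172). Markers of epithelium, the tissue richest in desmosomes, were nearly absent: 0 of 10 could be tested, Krt8, Krt14, Krt19, Cldn3 and Cldn4 had 0 reads, and the 10 genes together summed to between 1.95 and 5.84 in the E531R libraries and between 9.45 and 17.2 in the WT libraries.

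Macrophage and monocyte markers moved with Dsp and Cdh1. Of 10 listed, 6 could be tested. Over all tested genes 10.4% were higher in E531R and 9.53% lower. Of these 6 markers 5 were higher, while Ly6c2 did not pass. The 5 were 3.85-fold (Adgre1), 5.01-fold (Cd68), 5.72-fold (Csf1r), 9.56-fold (Mpeg1) and 32.2-fold (Mrc1) higher, and the median log2 fold change of the 6 was 2.43. Csf1r is also in the progenitor list. The summed level of the list ran from 28714 to 31733 in E531R and from 21035 to 28450 in WT, most of it Ly6c2 (22415 ± 1108 in E531R and 22715 ± 3954 in WT), while C1qa, C1qb and C1qc had 0 to 1.15 units in any library. The part of these cells in the Dsp and Cdh1 changes was not tested. Of 8 megakaryocyte markers, 4 could be tested and all 4 were higher, with sums of 988 to 1080 in E531R and 405 to 487 in WT, and their part was likewise not tested. Of the other lists, the dendritic one had 4 tested genes, with 1 higher and 2 lower, and the mast and basophil one 4, with 2 lower. The erythroid list had 1 tested gene, Klf1, which did not pass (log2 fold change -0.19, limma adjusted p = 0.637). Erythroid sums were 13.2 to 21.4 in E531R and 17.2 to 26.0 in WT, and 4 of these genes had 0 reads. The 8 neural genes summed to 0 to 2.08 in E531R and 0 to 2.30 in WT.

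Among the protocadherins outside the clusters, Pcdh7 and Pcdh11x could be tested and moved in opposite directions. Pcdh7 codes for an adhesion protein of the delta subfamily and lies on chromosome 5 (57717967 to 58133230, plus strand). It had 6.25, 6.81 and 4.87 in E531R, against 471, 521 and 385 in WT. The groups are separated by more than the range of either, with 21 reads over the E531R libraries and 1238 over the WT libraries. Pcdh7 averaged 5.98 ± 1.00 in E531R and 459 ± 68.9 in WT (SD, n = 3 each), a 76.8-fold fall (log2 fold change -6.04, SE 0.19; limma adjusted p = 4.64e-06), the 19th lowest log2 fold change of the 12991 tested genes. The call held in all 14 alternatives. Of the exonic bases of Pcdh7, 21.1% are shared with the antisense transcript 4932441J04Rik, and reads there cannot be told apart without strand. Of 9 endothelial markers 3 could be tested and 1 was lower: Pecam1 had 1460 ± 57.7 in E531R and 5850 ± 419 in WT (SD, n = 3 each), while Tie1 and Egfl7 did not pass (limma adjusted p = 0.0655 and 0.0598). The share lower over all tested genes was 9.53%. The endothelial sum was 1768 to 1894 in E531R and 5910 to 6919 in WT, most of it Pecam1. Emcn and Robo4 had 0 reads, and Kdr, Tek, Esam and Cldn5 had 0 to 1.39 units in any library of either group.

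Of 10 stromal markers 2 could be tested and 1 was lower: Pdgfrb had 11.3 ± 1.42 in E531R and 128 ± 30.7 in WT (SD, n = 3 each). Col1a1, at 17.4 ± 2.69 in E531R and 6.22 ± 4.06 in WT, lay in the other direction and did not pass (limma adjusted p = 0.092), and untested Lepr and Pdgfra also had their E531R values above their WT values. The shares over all tested genes were 10.4% higher and 9.53% lower. The stromal sum was 37.0 to 39.6 in E531R and 115 to 175 in WT, and Cxcl12, Lum, Dcn and Bglap had 0 reads. The part of endothelial or stromal cells in the fall of Pcdh7 was not tested.

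Pcdh11x, another delta protocadherin, lies on chromosome X (120290259 to 120910619, plus strand). It had 28.5, 32.1 and 31.2 in E531R and 1.60, 12.6 and 5.51 in WT. The groups do not overlap, though WT libraries differ among themselves, with means of 30.6 ± 1.88 in E531R and 6.58 ± 5.59 in WT (SD, n = 3 each). Its log2 fold change was 2.36 (SE 0.57, limma adjusted p = 0.0281). The call was lost without E531R replicate 1, 2 or 3 (limma adjusted p = 0.0944, 0.104 and 0.104), with log2 fold changes of 2.41, 2.33 and 2.35. Of the other 10 protocadherins outside the clusters, 6 had 0 reads and 4 (Pcdh1, Pcdh9, Pcdh10 and Pcdh17) had 1 to 3 reads over the 6 libraries.

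**Figure D3:**
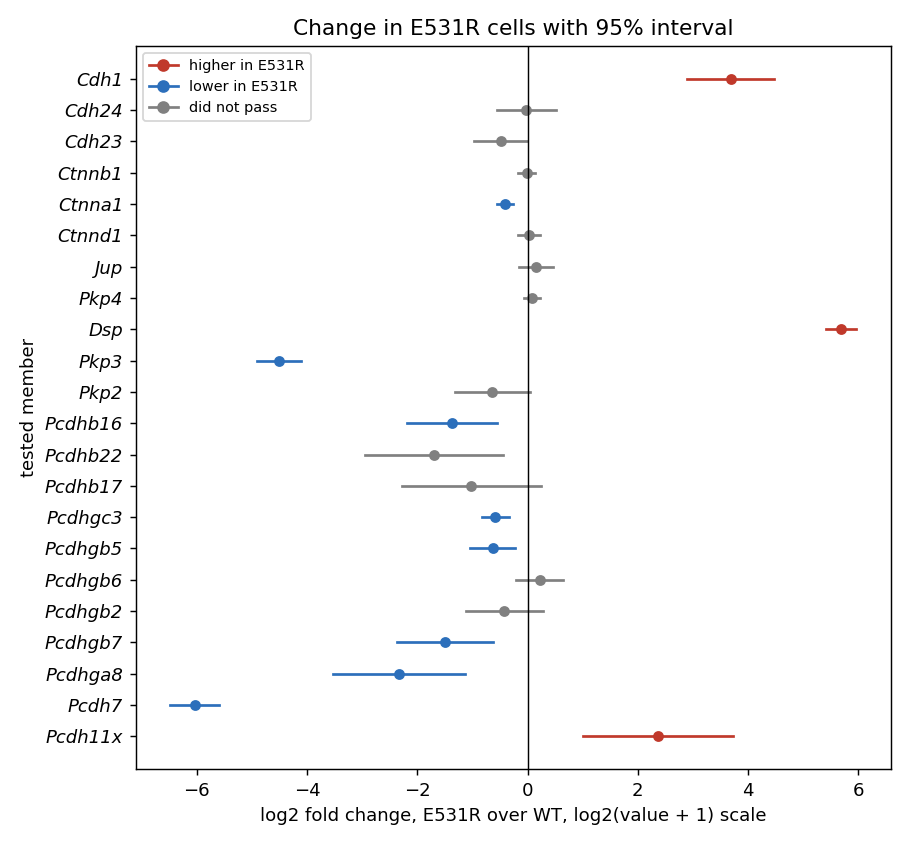
Change in E531R relative to WT as a log2 fold change of value + 1 (x axis), with its 95% interval, for the 22 tested members (y axis); red marks members higher in E531R, blue members lower and grey members that did not pass. Dsp at 5.69 and Cdh1 at 3.69 lie to the right, Pcdh7 at -6.04 and Pkp3 at -4.51 to the left, and most catenins and Pkp4 lie near 0 with short intervals.

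Clustered protocadherins were lower in E531R or did not pass. The 3 clusters lie side by side on chromosome 18, and 56 of their genes are listed. All 13 Pcdha genes had 0 reads. Of the 22 Pcdhb genes 3 could be tested, with 1 lower, and of the 21 Pcdhg genes 6 could be tested, with 4 lower. The other 4 of the 9 did not pass, and over all tested genes 9.53% were lower. Transcripts of the Pcdhg genes share their last exons, and among the 6 tested between 31.5% and 66.9% of exonic bases are shared with other genes, so reads there cannot be given to 1 gene.

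Pcdhgc3, a C-type isoform gene that is not subject to random promoter choice in neurons, held most of the cluster's signal. It had 381, 346 and 389 in E531R and 527, 525 and 627.5 in WT. All E531R libraries lay below all WT libraries, at 372 ± 22.7 against 560 ± 58.8 (SD, n = 3 each). Its log2 fold change was -0.58 (SE 0.10, limma adjusted p = 0.00778), and the call held in all 14 alternatives. Its share of the summed Pcdhg value was 66.4% to 73.4% in the E531R libraries and 67.3% to 70.0% in the WT libraries.

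The other Pcdhg genes were not uniform. Pcdhga8 had 1.39, 6.81 and 1.95 in E531R and 20.8, 21.8 and 13.4 in WT (log2 fold change -2.34, SE 0.50; limma adjusted p = 0.0177). Pcdhgb7 had 6.25, 4.87 and 5.84 in E531R and 23.9, 10.3 and 22.0 in WT (log2 fold change -1.49, SE 0.37; limma adjusted p = 0.03). Pcdhgb5 had 41.7, 58.4 and 54.5 in E531R and 87.8, 73.5 and 78.7 in WT (log2 fold change -0.64, SE 0.17; limma adjusted p = 0.044). In each of these the groups do not overlap.

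Pcdhgb6 went the other way in its means, with 49.5 ± 7.71 in E531R and 42.3 ± 4.96 in WT (SD, n = 3 each), but the groups overlap and it did not pass (log2 fold change 0.22, 95% interval -0.21 to 0.64; limma adjusted p = 0.446). Pcdhgb2 had 22.0 ± 4.66 in E531R and 30.4 ± 10.7 in WT and did not pass either (limma adjusted p = 0.371).

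The calls of Pcdhga8, Pcdhgb7 and Pcdhgb5 depended on the libraries used. The Pcdhga8 call was lost without E531R replicate 1 or 3 (limma adjusted p = 0.0657 and 0.0758) or WT replicate 1 or 2 (0.0634 and 0.0578). The Pcdhgb7 call was lost without E531R replicate 1, 2 or 3 (limma adjusted p = 0.089, 0.111 and 0.0948) or WT replicate 1 (0.0957). The Pcdhgb5 call was lost without any library other than WT replicate 3 (limma adjusted p between 0.0694 and 0.151) and when DESeq2 replaced limma (DESeq2 adjusted p = 0.0856).

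Under the minimum mean, Pcdhgb4 had 1.39, 2.92 and 0.973 in E531R and 15.96, 17.2 and 18.1 in WT, a total of 6 reads against 48. With no minimum mean it passed (log2 fold change -2.77; limma adjusted p = 0.00194), and the authors' deposited table gives it an adjusted p of 0.000131. Pcdhga5 had 7 reads in E531R and 31 in WT and did not pass (limma adjusted p = 0.0566 with no minimum mean). Pcdhga1 was even, with 9.73, 8.76 and 9.73 in E531R and 9.58, 10.3 and 10.2 in WT. Over the 20 Pcdhg genes other than Pcdhgc3 the summed value was 138, 175 and 170 in E531R and 255, 242 and 268 in WT, and the sums do not overlap. Group means were lower in E531R for 17 of the 21 Pcdhg genes, higher for 3 and equal, at 0 reads, for 1. Only 6 of the 21 could be tested, and 6 others had 1 to 9 reads over the 6 libraries. The genes lie in a single cluster and share exons, and they were not taken as separate cases.

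The Pcdhb genes do not use the shared last exons, and Pcdhb16 and Pcdhb17 share 0 exonic bases with other genes. The Pcdhb sum over 22 genes was 32.0, 34.1 and 34.1 in E531R and 120, 106 and 43.3 in WT. The E531R sums lay below the WT sums, and WT replicate 3 lay nearer to E531R than the other WT libraries did. Pcdhb16 had 9.73, 9.73 and 12.7 in E531R and 38.3, 36.7 and 17.3 in WT (log2 fold change -1.37, SE 0.34; limma adjusted p = 0.0325). Its call was lost without E531R replicate 1, 2 or 3 (limma adjusted p = 0.119, 0.117 and 0.0785) or WT replicate 1 or 2 (0.101 and 0.0913).

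Pcdhb22 had 1.39, 7.79 and 6.81 in E531R and 15.96, 19.5 and 15.0 in WT, and Pcdhb17 had 5.56, 6.81 and 5.84 in E531R and 27.1, 14.9 and 5.51 in WT. Neither passed (limma adjusted p = 0.0674 and 0.238). Both passed without WT replicate 3 (log2 fold change -1.77 and -1.59; limma adjusted p = 0.00927 and 0.00241). WT replicate 3 was the lowest WT library for all 8 Pcdhb genes with at least 10 reads over the 6 libraries, and for 3 of 14 such Pcdhg genes, of which it was the highest for 6.

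**Figure D4:**
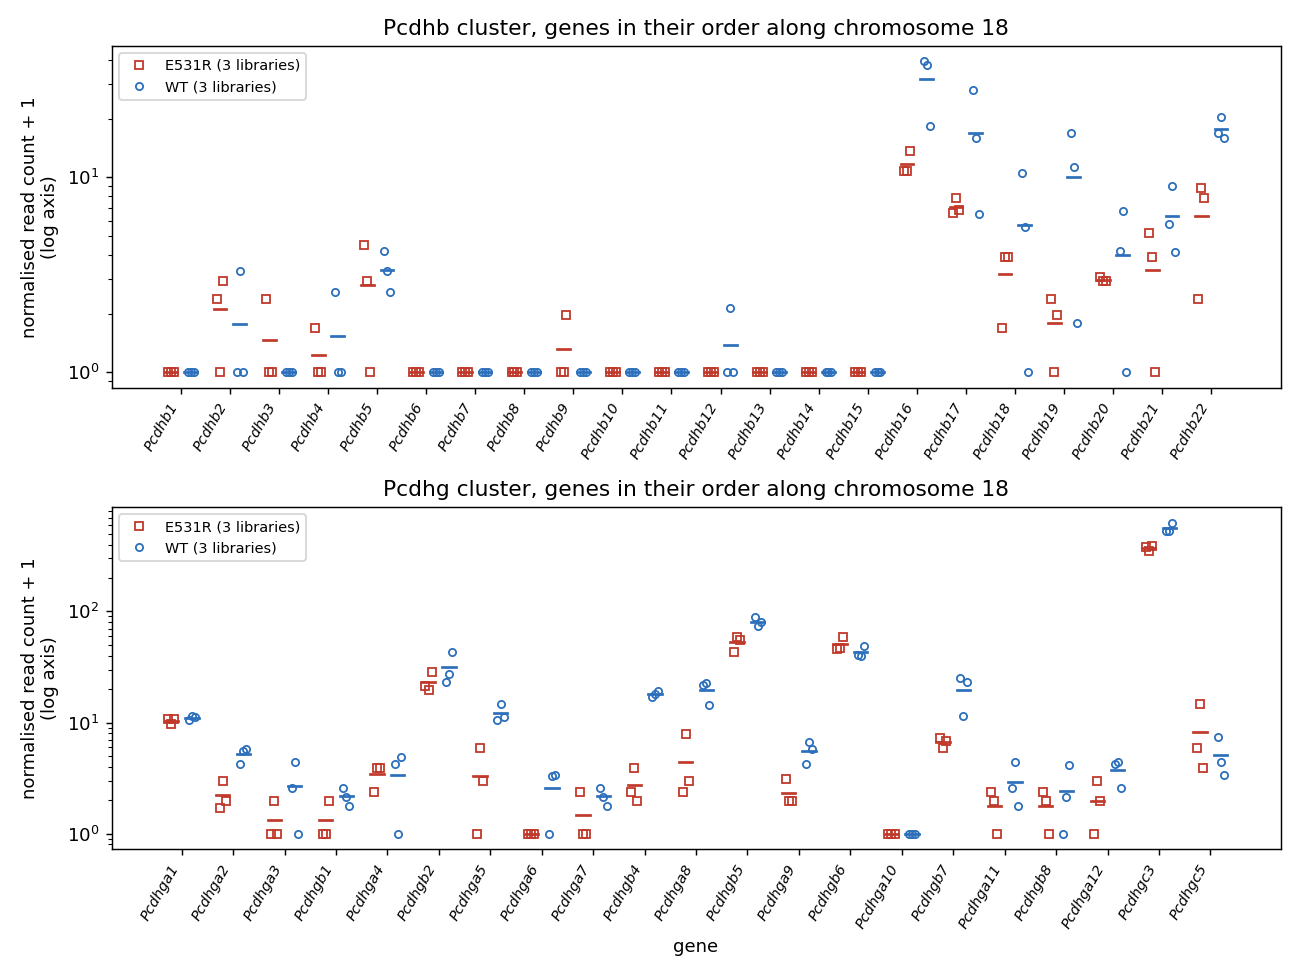
Normalised read count plus 1 on a log y axis for the 22 Pcdhb genes (upper panel) and 21 Pcdhg genes (lower panel) in their order along chromosome 18, with 1 point per library (red squares E531R, blue circles WT) and bars at means of 3 libraries. Pcdhb signal sits in the last 7 genes, Pcdhb16 to Pcdhb22, and Pcdhgc3 stands above all other Pcdhg genes at 372 in E531R and 560 in WT.

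The authors' deposited table gives an adjusted p for 37 members and calls 3 higher and 8 lower in E531R, with 10 of these called in the same direction here. Over all genes, the authors' deposited table calls 15.4% of 16596. The differences are Pcdhgb4, which was under the minimum mean, and Pcdhgb5, to which the authors' deposited table gives an adjusted p of 0.09.

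Of the 25 listed adherens junction partners, 19 could be tested, and 5 were higher and 4 lower, with a median log2 fold change of -0.12. All tested genes had 10.4% higher and 9.53% lower. Vinculin (Vcl), which alpha-catenin recruits under tension, had 2029, 2077 and 1907 in E531R and 894, 935 and 923 in WT (log2 fold change 1.13; limma adjusted p = 5.93e-05). The actin cross-linker Actn1 had 5470 ± 79.9 in E531R and 3210 ± 306 in WT (SD, n = 3 each, with a log2 fold change of 0.77, limma adjusted p = 0.000799). Plekha7, a p120-catenin partner, had 99.1 ± 13.9 in E531R and 220 ± 23.6 in WT (log2 fold change -1.15, limma adjusted p = 0.00158), and the alpha-catenin relative Ctnnal1 had 101 ± 0.994 and 242 ± 43.6 (log2 fold change -1.24, limma adjusted p = 0.00119). Without WT replicate 3, 6 partners were higher and 7 lower, and 47.4% of all tested genes were then called. Without E531R replicate 1, 3 were higher and 2 lower, and without E531R replicate 2 or 3, 3 were higher and 3 lower. Calls over all tested genes were then 819 to 842 higher and 746 to 789 lower, against 1349 and 1238 with all libraries.

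Among 20 tested genes of beta-catenin turnover and TCF factors 2 were higher and 3 lower, with a median log2 fold change of 0.05. Among all tested genes 10.4% were higher and 9.53% lower. Without WT replicate 3, 8 were higher and 5 lower, and 47.4% of all tested genes were then called. Without E531R replicate 1, 2 or 3 or WT replicate 1, 2 were higher and 1 lower. Calls over all tested genes were then 819 to 1025 higher and 746 to 901 lower, against 1349 and 1238 with all libraries. Rnf43, a ubiquitin ligase that removes WNT receptors, had 215, 186 and 183 in E531R and 23.9, 33.3 and 33.9 in WT (log2 fold change 2.65; limma adjusted p = 8.66e-05). Its relative Znrf3 had 96.9 ± 7.66 in E531R and 219 ± 39.4 in WT (SD, n = 3 each, with a log2 fold change of -1.15, limma adjusted p = 0.00256), so the pair moved in opposite directions. Tcf7l2, a DNA-binding partner of beta-catenin, had 216 ± 3.11 in E531R and 65.1 ± 4.85 in WT (log2 fold change 1.72, limma adjusted p = 7.68e-05). Btrc, which targets beta-catenin for degradation, had 522 ± 16.7 in E531R and 663 ± 24.4 in WT (log2 fold change -0.35, limma adjusted p = 0.0172). The Btrc call was lost without E531R replicate 1, 2 or 3 (limma adjusted p = 0.0994, 0.0641 and 0.086) or WT replicate 1 (0.0508).

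Of 25 tested regulators of cadherin and protocadherin genes, 3 were higher and 22 did not pass, with a median log2 fold change of 0.11. The share higher over all tested genes was 10.4%. Without WT replicate 3, 9 were higher and 6 lower, and 47.4% of all tested genes were then called. Zeb1, known as a repressor of Cdh1 in epithelium, had 22.2, 28.2 and 22.4 in E531R and 1.60, 2.30 and 3.15 in WT (log2 fold change 2.94; limma adjusted p = 0.000653). Cdh1 and Zeb1 were both higher in E531R, and any link between them was not tested. The far more abundant Zeb2 had 2287 ± 24.5 in E531R and 2164 ± 577 in WT and did not pass (limma adjusted p = 0.705). Snai1, under the minimum mean, lay the other way, with means of 3.10 in E531R and 8.38 in WT and no overlap. Snai3, a SNAIL family factor, had 358 ± 16.4 in E531R and 133 ± 11.1 in WT (SD, n = 3 each, with a log2 fold change of 1.43, limma adjusted p = 0.000132). The DNA methyltransferase Dnmt3a had 962 ± 67.5 in E531R and 514 ± 4.36 in WT (log2 fold change 0.90, limma adjusted p = 0.000326). Ctcf, which loops protocadherin promoters to their enhancers, had 4760 ± 68.8 in E531R and 4574 ± 408 in WT and did not pass (limma adjusted p = 0.638). Smchd1, a silencer of protocadherin clusters, had 4011, 4119 and 3985 in E531R and 3838, 4052 and 1856 in WT (limma adjusted p = 0.384), with WT replicate 3 the lowest.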

How the data were processed

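Total RNA libraries of 6 samples were compared, 3 E531R and 3 WT, grouped by their titles. The submitters' processing notes name HISAT2, featureCounts, DESeq2, SAMtools, cutadapt and FastQC, and the build GRCm38. Their versions, the annotation and the strandedness were not given in the sources used here. All deposited values are a signal (normalised read count): each library's reads per gene, scaled by the authors with a single size factor, and 100% of values gave whole reads to a tolerance of 0.001. The deposited log2 fold change, its standard error score and the p-value are the authors', per the file headers, with the fold change turned here to E531R over WT.

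The main test was limma 3.58.1 (R 4.3.3) with its trend option, fitted to log2(value + 1) for all genes averaging 10 or more. It was two-sided with no covariate, Benjamini-Hochberg adjustment over 12991 genes and a threshold of 0.05. Log2 fold changes understate low genes, and folds are ratios of means of the values. edgeR 4.0.16 and DESeq2 1.42.0 on recovered reads were alternatives, with other pseudocounts, filters, TMM, a replicate block and leaving out libraries. edgeR called 1393 genes higher and 1251 lower. The test was tested on simulated data.

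Every member with a mean of at least 10 may be named, and lower ones with at least 10 reads in a group. Up to 4 genes with the smallest adjusted p are named per list. Ctcf, Smchd1, Zeb2, Snai1 and members with fewer reads were picked for naming with their values known. Members and lists were chosen with earlier results of these data known. Positions, transcript lengths and shared exonic bases come from GENCODE M21 on GRCm38. Floors of 3 reads and counting limits cover counting error only, since reads are not independent molecules. Figures were drawn with matplotlib 3.10.9.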

Additional observations from a re-analysis of the deposited data

How the results depend on the processing

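Of the 11 called members, 6 (Dsp, Cdh1, Pcdh7, Pkp3, Pcdhgc3 and Ctnna1) kept direction and call under every alternative that could test them. With a mean of at least 50, 11 members could be tested, with 1 higher and 5 lower. The desmosome-linked list then had 0 higher and 0 lower, because Perp and Evpl fell under that mean and could not be tested. That list also had 0 lower with no minimum mean and with DESeq2. Pcdhb22 passed with a pseudocount of 10 (adjusted p = 0.0314), and Pcdhgb5 did not with no minimum mean (0.0799).

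Replicate numbers are not stated to mark a shared batch, so same-numbered libraries were not treated as pairs. Their deviations from group means correlated at 0.00174, 0.192 and 0.238. For E531R and WT libraries of unlike number the correlations ran from -0.231 to 0.177. These values cannot decide whether libraries were paired, since deviations from means of 3 libraries are tied to each other. With the replicate block 1179 genes were higher and 1062 lower, 3 members were higher and 6 lower (Pcdhb16 and Pcdhgb5 were lost, limma adjusted p = 0.0616 and 0.0917), the beta-catenin list had 1 lower (Btrc was lost, 0.0573) and the desmosome-linked list 0 lower (Evpl was lost, 0.065).

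Leaving out 1 library gave 819 to 3159 higher and 746 to 2999 lower genes, and 2 to 4 higher and 4 to 10 lower members. The adherens list had 3 to 6 higher and 2 to 7 lower, the beta-catenin list 2 to 8 and 1 to 5, the regulators 3 to 9 and 0 to 6, and the desmosome-linked list 1 to 2 and 0 to 1. The list counts and the named genes of the lists were added after seeing the data. The highest counts came without WT replicate 3; the cause was not tested. Log2 fold changes changed sign for Ctnnb1 (-0.033 to 0.020), Ctnnd1 (-0.0051 to 0.077), Cdh24 (-0.24 to 0.16) and Ctcf (-0.015 to 0.10), which passed in none of these. Depth limits members with few reads, since 1 read is worth 0.695 to 1.60 units.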

Other observations

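The antisense transcript 4932441J04Rik, which shares 21.1% of the exonic bases of Pcdh7 on the opposite strand, had 0 reads in all E531R libraries and values of 30.3, 29.9 and 9.45 in the WT libraries. It was singled out after its values were seen. Whether counting used strand is unknown here, so its reads and those of Pcdh7 over the shared bases cannot be told apart.

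Within the Pcdhb cluster, the 7 genes at the downstream end, Pcdhb16 to Pcdhb22, held 313 of 338 reads over the 6 libraries, or 92.6%. The other 15 genes held 25 reads, and 9 of them had 0. This stretch was chosen after its values were seen.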
